A study of Arabidopsis thaliana with 4 samples.

Results

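The genes described here encode serine carboxypeptidase-like proteins, subtilases, glycosidases and purple acid phosphatases, enzyme families whose members mostly enter the secretory pathway. They were chosen by name, under a rule set with earlier results of these data known. A probe set was taken when the array annotation gave it 1 gene and the gene's symbol, after an optional leading AT, began with SCPL, SBT, BGLU, BGAL, BXL or PAP followed by a digit. This gave 60 probe sets for 60 genes, out of 13355 genes with a named probe set. There were 29 SCPL, 8 SBT, 20 BGLU, 1 BGAL, 0 BXL and 2 PAP genes. A further 87 genes carry such symbols in the reference gene table but have no probe set annotated to them alone here, and they were not analysed. The glycosidase group was therefore almost entirely BGLU, the glycoside hydrolases that include classical plant beta-glucosidases.

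RNA came from whole 2-week-old Arabidopsis thaliana seedlings and was hybridised to Affymetrix ATH1 arrays, on which a set of short oligonucleotides reads each transcript. The 4 genotypes were the duf761-1 mutant in the Nossen background, its wild type NO (Nossen), the OE6 line overexpressing DUF761-1 in the Columbia background, and its wild type Col-0. The mutant and the overexpressor are 1 line each, and the promoter of the OE6 transgene is not given in the sources used here. The labels give no locus for DUF761-1, a protein with a domain of unknown function, so its own level was not read to check them. All seedlings grew at 22 °C on medium with 2% sucrose, under days of 16 h light (100 µmol per m2 per s) and 8 h dark. With 1 array for each genotype, differences are given by size, with no test and no p-value. In whole seedlings, fewer cells of a type and less RNA per cell cannot be told apart.

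Serine carboxypeptidases cut single residues from the C-terminal end of peptides, and several plant relatives have instead become acyltransferases of secondary metabolism. Subtilases are serine endoproteases, many of them secreted to the cell wall, where they mature other wall proteins and release peptide hormones from precursors. Beta-glucosidases of the BGLU family release sugars from stored or conjugated compounds such as monolignol, flavonol and coumarin glucosides, in the wall, the vacuole or ER-derived bodies. Purple acid phosphatases free phosphate from organic esters and are known for their response to phosphate starvation.

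Signals are linear intensities on a common scale, with the same trimmed mean of 500 on each array. A floor was set at a signal of 102, the 40th percentile over the 4 arrays without control probe sets, and lower signals were raised to it before log2 was taken. A ratio with 1 array at the floor is a bound. As a yardstick of measurement noise within an array, log2 ratios were compared between pairs of probe sets of one gene (60 genes). The SD per probe set was 0.28 between duf761-1 and NO, 0.24 between OE6 and Col-0, and 0.42 between the wild types. It holds no spread between plants or labelling reactions. Between 58.3% and 61.6% of non-control probe sets were above the floor on each array. Leaf and root markers were both present on every array. The lowest signal was 17984 for the leaf marker LHCB4.1 and 15882 for PYK10, a root beta-glucosidase with a name outside the rule. The leaf marker SBPASE had 12460 on duf761-1 and 13142 on NO, against 8384 on OE6 and 8464 on Col-0. The log2 ratio of Col-0 over NO was -0.63 for SBPASE and -0.18 for LHCB4.1. The root hair expansin gene EXPA18 had 256 on duf761-1 and 426 on NO, and 290 on OE6 and 188 on Col-0. EXPA7 had 145 on duf761-1 and 79.1 on NO, the latter below the floor, and 196 on OE6 and 155 on Col-0. Of the 6 listed leaf and 6 listed root markers these are the 2 and the 3 that could be read, and their part in the values below was not tested. The 3′ over 5′ signal ratio of the actin controls was 0.267 on duf761-1, 0.279 on NO, 2.06 on OE6 and 1.61 on Col-0, so it separated the backgrounds, while the GAPDH ratio lay between 0.754 and 0.887.

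Of the 60 genes, 31 exceeded the floor on 1 array or more, 26 of them on all 4, and 29 did not exceed it on any. The 31 make up 51.7% of the members, where the same share of all named genes was 59.9%. Detection differed by family. With this floor the SCPL genes divided into 14 above it on all 4 arrays and 15 on none. Some of the 15 came near it, such as scpl47 with 92.0 on Col-0 and scpl40 with 89.8 on NO. Of the subtilases, 4 were above it on all arrays, SBT3.3 on 1 array, and SBT4.13, SBT5.4 and SBT3.12 on none. Of the BGLU genes, 8 were above it on all arrays and 3 on some. BGAL16, the 1 beta-galactosidase gene, was below it on every array, with signals of 16.0 on duf761-1, 52.8 on NO, 68.3 on OE6 and 62.0 on Col-0.

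The phosphatase group could hardly be described. PAP20 was above the floor on the OE6 array alone, with a signal of 2.2 on duf761-1, 28.4 on NO, 116 on OE6 and 67.7 on Col-0. Its OE6 signal was at least 1.14 times that of Col-0, a log2 bound of 0.18 that leaves a larger difference possible. The log2 ratio was 0.78 with a floor at the 25th percentile or none. PAP85 was taken by its symbol, but it is known as a vicilin-like seed storage protein and not as a phosphatase. It was below the floor on every array, with signals of 27.1 on duf761-1, 31.1 on NO, 30.9 on OE6 and 3.8 on Col-0.

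**Figure D1:**
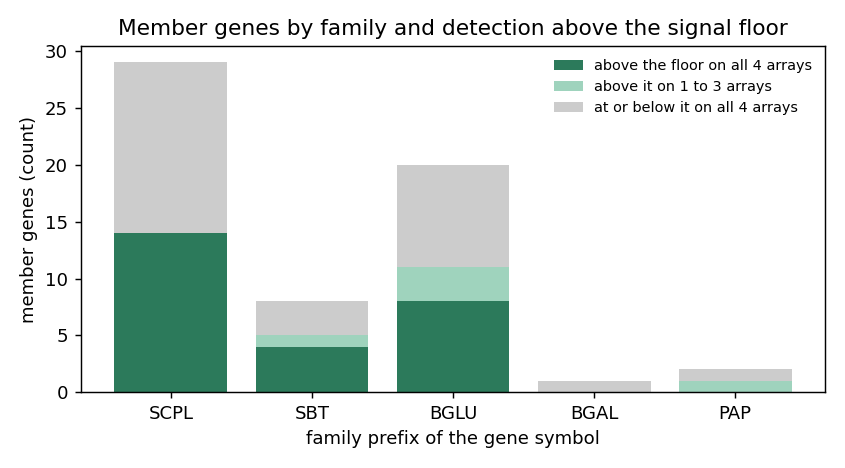
Number of member genes (vertical axis, count) for each family prefix (horizontal axis), divided by whether the signal was above the floor of 102 on all 4 arrays, on 1 to 3 arrays, or on none. The 29 SCPL genes divide into 14 and 15, with none between.

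**Figure D2:**
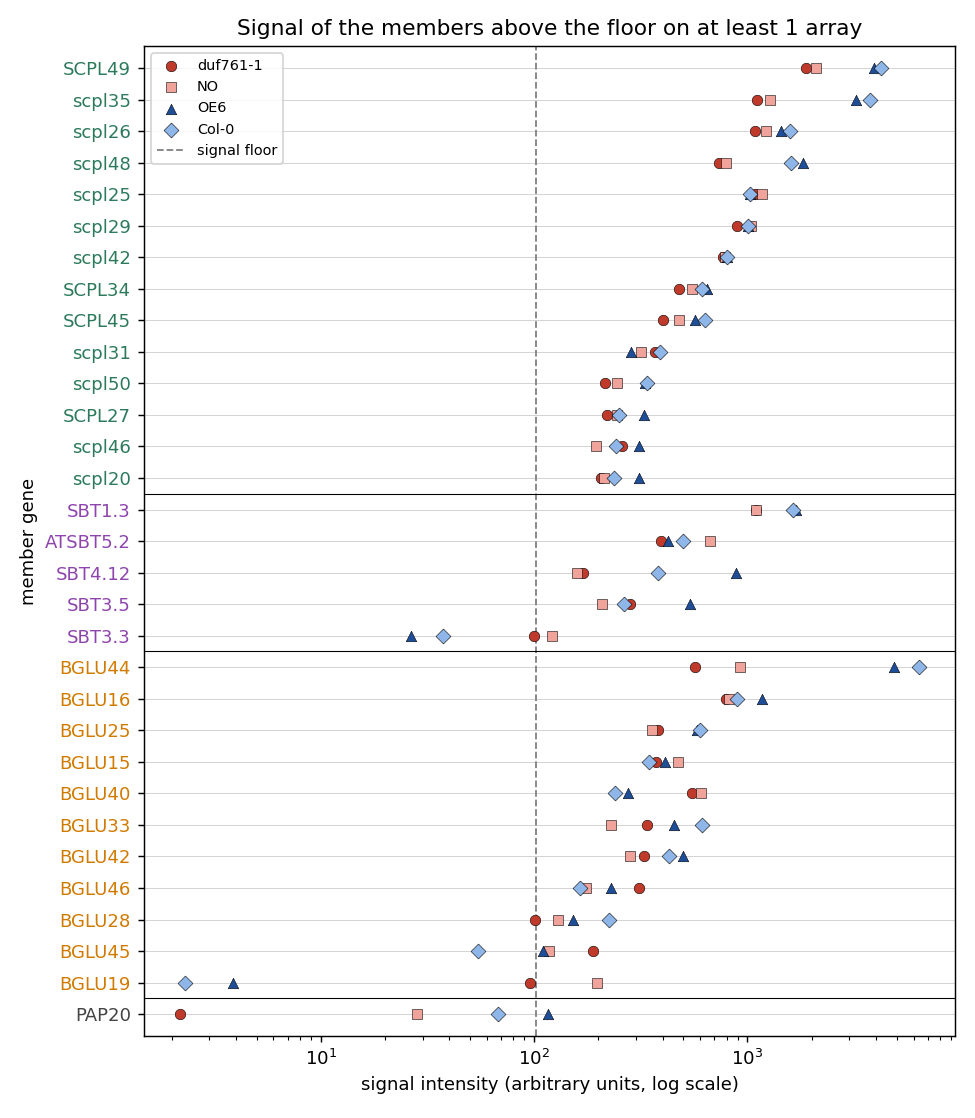
Signal intensity (horizontal axis, arbitrary units, log scale) of the 31 genes above the floor on at least 1 array (vertical axis, grouped as serine carboxypeptidase-like, subtilase, glycosidase and phosphatase), with a symbol for each of the 4 arrays and a dashed line at the floor. BGLU44 shows the widest gap between the Columbia arrays (4856 on OE6 and 6338 on Col-0) and the Nossen arrays (566 on duf761-1 and 925 on NO) among genes above the floor on all arrays.

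Setting duf761-1 against NO shows how these genes stand in the mutant. At 2-fold, 0 of the 31 genes were higher and 0 lower, where 0.663% and 0.225% of all 7993 genes above the floor were. At 1.5-fold, 2 were higher and 3 lower, against 3.52% and 2.51% of all genes, and the 5 were 4 beta-glucosidase genes and 1 subtilase gene. The median log2 ratio of the 31 was -0.10, where that of all genes above the floor was 0.00.

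Both genes at least 1.5-fold higher on the mutant array are neighbours in the genome and are known to act on monolignol glucosides, the stored forms of lignin precursors. BGLU46 (AT1G61820) had a signal of 311 on duf761-1 and 176 on NO, and of 230 on OE6 and 165 on Col-0. BGLU45 (AT1G61810) had a signal of 188.5 on duf761-1 and 118 on NO, and of 110 on OE6 and 54.3 on Col-0. For both genes the duf761-1 array carried the highest signal of the 4, and the other 3 lay closer to the floor. The log2 ratio of duf761-1 over NO was 0.82 for BGLU46 (1.77-fold) and 0.68 for BGLU45 (1.60-fold), beside the yardstick of 0.28. A 60th percentile floor gave 0.11 and 0.00. The yardstick rests on probe sets above the floor on all 4 arrays, and BGLU45 was above it on 3. BGLU47, of the same clade, was below the floor on every array.

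The 3 genes lower on the mutant array were a subtilase gene and 2 beta-glucosidase genes. ATSBT5.2 (AT1G20160) encodes the subtilase also known as CO2 response secreted protease, which cleaves the stomatal peptide EPF2. Its signal was 392 on duf761-1 and 669 on NO, and 426 on OE6 and 500.5 on Col-0. NO was the highest of the 4 arrays and duf761-1 the lowest. The log2 ratio of Col-0 over NO was -0.42, beside a yardstick of 0.42 between the wild types. The log2 ratio of duf761-1 over NO was -0.77 (1.71-fold lower), and ranged from -0.79 to -0.64 over the settings run. BGLU44 (AT3G18080), an enzyme known to prefer beta-mannosides, had 566 on duf761-1 and 925 on NO, a log2 ratio of -0.71 (1.63-fold lower). BGLU19 (AT3G21370), of the clade that holds enzymes of ER bodies, had 95.3 on duf761-1 and 196 on NO, and 3.9 on OE6 and 2.3 on Col-0. It was above the floor on the NO array alone, and it was at least 1.92-fold lower on duf761-1. This log2 bound of -0.94 was -0.59 with the pseudocount, and a 60th percentile floor left no difference (0.00).

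Among the SCPL genes the mutant ratios were small and mostly of one sign. Of 14, 12 had a log2 ratio below 0, where 50.4% of all genes above the floor on both arrays did, and the median was -0.16. The range was -0.26 (SCPL45) to 0.41 (scpl46). All 12 lower genes were within the yardstick of 0.28 of 0, and 0 of the 14 were 1.5-fold apart. The count of 12 was the same with median, quantile and loess scaling, and was 9 with a floor at the 60th percentile. SCPL49, annotated also as carboxypeptidase Y and known as a vacuolar enzyme rather than a secreted one, had 1876 on duf761-1 and 2096 on NO, a log2 ratio of -0.16. SCPL45 had 402 on duf761-1 and 480.0 on NO, while scpl46 had 259 on duf761-1 and 195 on NO.

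The other subtilase and BGLU genes were within 1.5-fold in the mutant. SBT1.3 was level, with 1102 on duf761-1 and 1099 on NO (0.00). SBT3.5, whose product processes a pectin methylesterase, had 281 on duf761-1 and 209 on NO, a log2 ratio of 0.43, and SBT4.12 had 170.4 on duf761-1 and 159 on NO (0.10). BGLU33 had 339 on duf761-1 and 229 on NO, a log2 ratio of 0.57, just short of 1.5-fold. BGLU16, with 794 on duf761-1 and 817 on NO, was level at -0.04. The SD of the ratios measured on both arrays was 0.19 for SCPL genes (14), 0.51 for subtilases (4) and 0.50 for glycosidases (9), where it was 0.31 for all genes. The groups differ in signal as well as in family, and the part of signal in this difference was not tested.

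Setting OE6 against Col-0 shows how the genes stand in the overexpressor. At 2-fold, 2 of the 31 genes were higher on OE6 and 0 lower, where 0.475% and 0.488% of all 7993 genes were. The same 2 genes were the only ones at least 1.5-fold apart (2.75% of all genes higher and 2.78% lower), and both encode subtilases. The median log2 ratio of the 31 was 0.01, and that of all genes was -0.01.

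SBT4.12 (AT5G59090), known with ATSBT5.2 as a protease of the abscission peptide precursor IDA, had a signal of 886 on OE6 and 380 on Col-0, and of 170.4 on duf761-1 and 159 on NO. OE6 was the highest of the 4 arrays, Col-0 stood between, and the Nossen arrays were low and close together. The log2 ratio of OE6 over Col-0 was 1.22 (2.33-fold), beside the yardstick of 0.24, and ranged from 1.04 to 1.32 over the settings run. SBT3.5 (AT1G32940) had 537 on OE6 and 264.5 on Col-0, and 281 on duf761-1 and 209 on NO. Here OE6 stood apart from the other 3 arrays, with a log2 ratio of 1.02 (2.03-fold), and it fell short of 2-fold in 2 of the 10 alternatives, with 0.80 at the lowest. The other subtilases did not follow: SBT1.3 had a log2 ratio of 0.06 and ATSBT5.2 one of -0.23. SBT3.3, known from immune priming, was below the floor on both Columbia arrays (26.6 on OE6 and 37.6 on Col-0) and SBT4.13 on all 4.

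No SCPL or BGLU gene was 1.5-fold apart on OE6 with the floor used. BGLU45, with 110 on OE6 and 54.3 on Col-0, was at least 0.10 higher by that floor and 1.01 higher on the log2 scale with a floor at the 25th percentile or none. Of 14 SCPL genes, 7 had a log2 ratio below 0, where 53.2% of all genes above the floor on both arrays did. The ratios ran from -0.46 for scpl31 (285 on OE6 and 390.5 on Col-0) to 0.39 for SCPL27 (329 on OE6 and 251 on Col-0). Among the BGLU genes the range of measured ratios was -0.55 to 0.48. The lowest was BGLU28, an enzyme known from glucosinolate breakdown under sulfur deficiency, with 153 on OE6 and 223 on Col-0. The highest was BGLU46, with 230 on OE6 and 165 on Col-0. BGLU42, which releases coumarins from their glucosides in roots, had 501 on OE6 and 427 on Col-0, a log2 ratio of 0.23. BGLU15, a flavonol glycoside hydrolase, had 410.0 on OE6 and 344 on Col-0, a log2 ratio of 0.25.

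**Figure D3:**
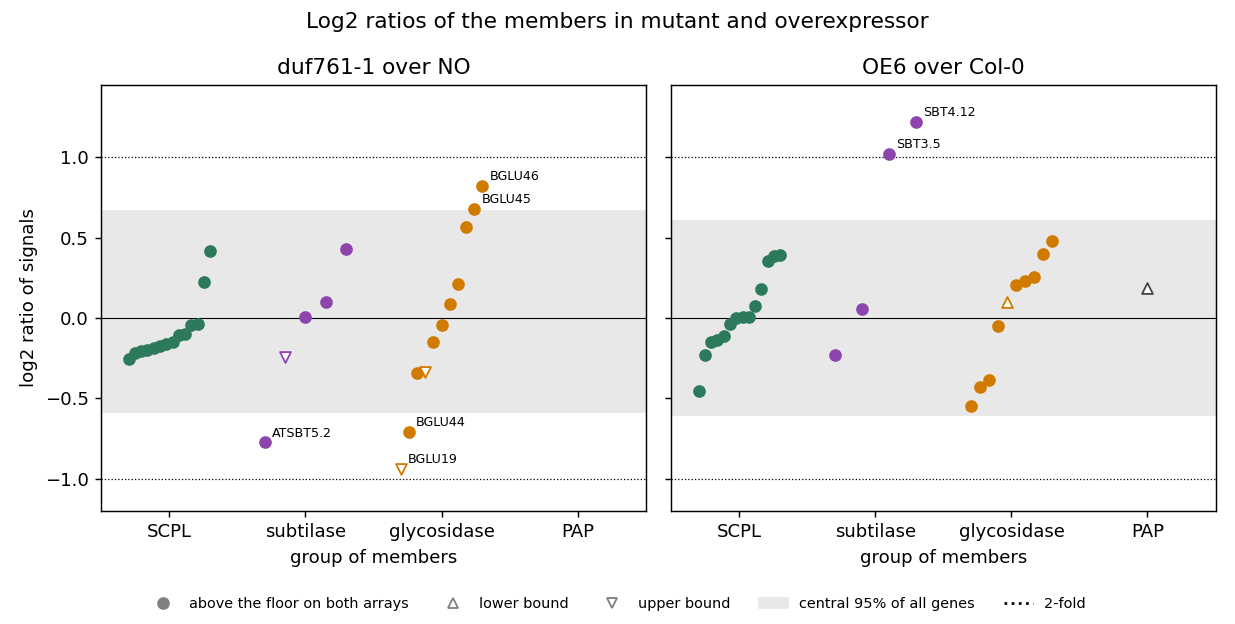
Log2 ratio of signals (vertical axis) of each gene by group (horizontal axis) in the mutant panel (duf761-1 over NO) and the overexpressor panel (OE6 over Col-0); filled circles are genes above the floor on both arrays, open triangles are bounds, the grey band holds the central 95% of all genes above the floor, and dotted lines mark 2-fold. SBT4.12 and SBT3.5 lie above the 2-fold line on OE6, and the 5 genes named in the mutant panel lie outside the grey band but within the 2-fold lines, BGLU19 as a bound.

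The mutant and overexpressor comparisons share no array. For the 26 members measured on all 4 arrays, both log2 ratios had the same sign in 14 and opposite signs in 12, and they had the same sign in 52.5% of all such genes. With the floor used, no member was 1.5-fold apart in both comparisons. With a floor at the 25th percentile or none, BGLU45 was, at 0.68 in the mutant and 1.01 in the overexpressor. With no floor BGLU19 (-1.04 and 0.76) and PAP20 (-3.72 and 0.78) were too, on signals mostly below the floor used. Few genes were 1.5-fold apart in either comparison. In the mutant 3.52% of all genes were higher and 2.51% lower, and in the overexpressor 2.75% and 2.78%. The share of all genes apart in both was not counted. SBT4.12 had ratios of 0.10 in the mutant and 1.22 in the overexpressor, and BGLU33 had 0.57 and -0.43. BGLU44 was lower in both (-0.71 and -0.38) and BGLU46 higher in both (0.82 and 0.48).

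The Col-0 and NO wild types were compared because the lines lie in different backgrounds. At 2-fold, 6 of the 31 genes were higher on Col-0 and 1 lower, where 9.03% and 5.09% of all genes were. These counts moved with the floor, to 6 and 4 with the 25th percentile, 7 and 4 with none, and 3 and 2 with the floor as a pseudocount. At 1.5-fold, 9 were higher and 2 lower, where 19.9% and 13% of all genes were. The median log2 ratio of the 31 was 0.30, and that of all genes was 0.04. Scaling the arrays on their medians moved the median of all genes by -0.12, and the members' median was then 0.14. Relative to the median of all genes it was 0.26 as deposited, 0.22 with median scaling, 0.15 with quantile normalization and 0.02 with a 60th percentile floor, the lowest of the settings run.

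The pattern could be set against a second pair of arrays, since OE6 and duf761-1 lie in the same backgrounds. Both Columbia arrays were at least 2-fold higher than both Nossen arrays for 4 of the 31 genes and at least 2-fold lower for 0, where 4.85% and 2.94% of all genes were. Without the 2-fold limit, 18 of the 31 genes were higher on both Columbia arrays and 3 lower, where 36.5% and 29.8% of all genes were, and the 18 became 13 with median scaling. The 4 genes were BGLU44, SBT4.12, scpl35 and scpl48. For SBT4.12 the log2 ratio of Col-0 over NO was 1.25, but 0.40 with a floor at the 60th percentile, which lies above its Nossen signals.

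Among members above the floor on all 4 arrays, BGLU44 showed the widest separation, with signals of 4856 on OE6 and 6338 on Col-0, against 566 on duf761-1 and 925 on NO. The log2 ratio of Col-0 over NO was 2.78 (6.85-fold), and it ranged from 2.61 to 2.88 over the settings run. Its neighbour BGLU43 was below the floor on all 4 arrays. Next among the measured genes came scpl35 (AT5G08260), with 3209 on OE6 and 3757 on Col-0, against 1105 on duf761-1 and 1278 on NO, a log2 ratio of Col-0 over NO of 1.56. In each gene the lowest Columbia signal was well above the highest Nossen signal. The gene scpl48 (AT3G45010) had 1818 on OE6 and 1604 on Col-0, against 736 on duf761-1 and 790 on NO. SCPL49 was similar in shape, with 3909 on OE6 and 4234 on Col-0, against 1876 on duf761-1 and 2096 on NO. The Col-0 over NO log2 ratios of scpl48 and SCPL49 were 1.02 and 1.01, and both were under 2-fold with median scaling and with the pseudocount. BGLU33 was 2-fold higher on Col-0 (609 on Col-0 and 229 on NO, a log2 ratio of 1.41), but OE6 with 451.5 and duf761-1 with 339 lay between and nearer each other (0.41).

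In the other direction stood BGLU40 (AT1G26560), with 277 on OE6 and 240.0 on Col-0, against 548 on duf761-1 and 608 on NO. The log2 ratio of Col-0 over NO was -1.34, and that of OE6 over duf761-1 was -0.99. BGLU19 was at least 1.92-fold lower on Col-0 than on NO, and both Columbia signals were under 4. Of the 14 SCPL genes, 12 had a log2 ratio of Col-0 over NO above 0, where 52.3% of all genes did, and 2 had one below 0, where 47.7% did. The 2 became 6 with median scaling and 4 with quantile normalization, so this count moves with the scaling. The gene scpl25 was the lowest SCPL gene at -0.18, with 1026 on Col-0 and 1164 on NO. ATH1 probes read the Columbia sequence, and sequence differences in Nossen and differences in transcript level cannot be told apart here. The actin 3′ to 5′ ratio separated the same arrays, and its part in these values was not tested.

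**Figure D4:**
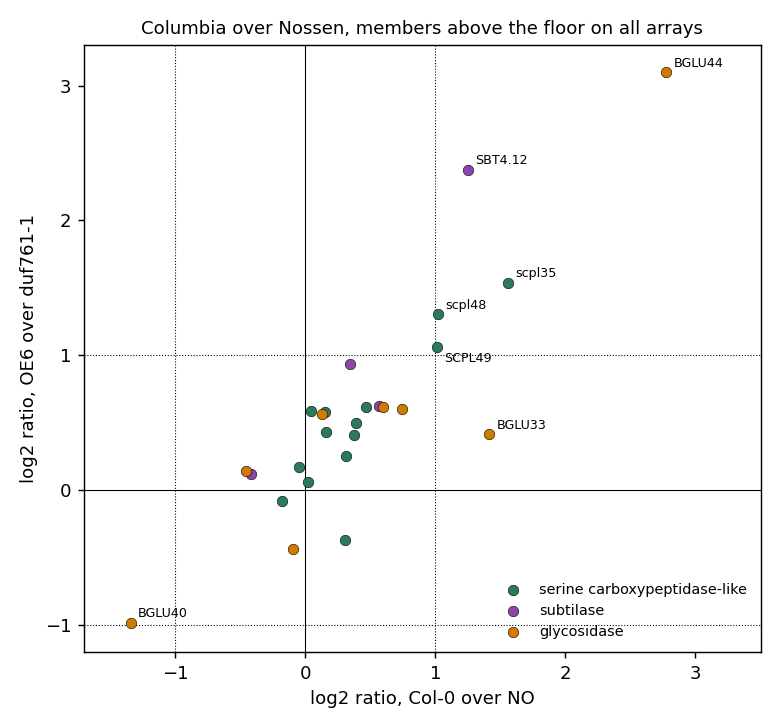
Log2 ratio of Col-0 over NO (horizontal axis) and of OE6 over duf761-1 (vertical axis) for the 26 genes above the floor on all 4 arrays, coloured by group, with dotted lines at 2-fold. The axes share no array, and for 22 of the 26 genes, as for 78.1% of all such genes, the signs are the same; BGLU44 is at the upper right and BGLU40 at the lower left.

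Many of these genes lie beside a relative. By gene order in the reference table, 8 pairs of members of the same family were immediate neighbours among protein-coding genes, and 3 further pairs had between 1 and 3 genes between them. In 3 of the 8 pairs, 1 gene was above the floor on all 4 arrays and its neighbour on none: scpl26 and scpl28, BGLU44 and BGLU43, and BGLU16 and BGLU27. In 2 pairs neither was above it on any array (scpl22 with scpl23, and BGLU31 with BGLU32). The rest were BGLU45 with BGLU46, and BGLU15, BGLU28 and BGLU29 in a row, which were above the floor on 4, 3 and 0 arrays in that order. SBT4.12 and SBT4.13, with 3 genes between them, were above it on 4 arrays and on 0. SBT3.5 and SBT3.3, with 1 gene between them, were above it on 4 arrays and on 1. No member probe set carries a suffix that marks possible cross-hybridisation. A signal below the floor can come from a poor probe set as well as from a low transcript level.

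Other enzymes and regulators of the same processes were read from lists of genes with other names. Of 62 listed glycosidase symbols, 5 genes were above the floor, and on OE6 2 of these were at least 2-fold higher and 0 lower, where 0.475% and 0.488% of all genes were. They were the secreted alpha-amylase gene AMY1 (620 on OE6 and 123 on Col-0, a log2 ratio of 2.34) and the invertase-like gene cwINV6 (291 on OE6 and 101 on Col-0, at least 1.51 higher). In the mutant comparison none of the 4 with a ratio was 1.5-fold apart, where 3.52% of all genes were higher and 2.51% lower. GH9C2, an endoglucanase-like gene, was furthest with 1149 on duf761-1 and 1528 on NO (-0.41). PYK10 was level throughout, at -0.04 in the mutant and 0.05 in OE6.

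Of 49 listed symbols of other proteases, 8 genes were above the floor, and with the floor used 0 were called at 2-fold in any of the 3 comparisons, 2 of the ratios being bounds that leave a larger difference possible. Of all genes, at most 9.03% were called at 2-fold in one direction of a comparison. At 1.5-fold, 1 of the 8 was higher in the overexpressor, where 2.75% of all genes were. Between the wild types 2 were higher and 1 lower on Col-0, where 19.9% and 13% of all genes were. The vacuolar processing enzyme gene ALPHA-VPE was above the floor on OE6 alone (176 on OE6 and 81.1 on Col-0, at least 0.78 higher), while BETA-VPE had 176 on OE6 and 250.5 on Col-0 (-0.51), and 62.2 on duf761-1 and 139 on NO (-0.44 or lower). ARA12, a subtilase of the seed coat mucilage also known as SBT1.7, had 2999 on OE6 and 2687 on Col-0, and 3854 on duf761-1 and 4108 on NO. Among 3 genes linked to phosphate starvation, WRKY6, a transcription factor gene of phosphate and senescence responses, had 334.5 on duf761-1 and 202 on NO (0.73), and 349.9 on OE6 and 361 on Col-0 (-0.05). The multicopper oxidase genes LPR1 and LPR2 had mutant ratios of -0.45 or lower and 0.22. The cystatin gene CYS1 and the serpin gene SERPIN1, both protease inhibitors, had mutant ratios of 0.19 and -0.37 and OE6 ratios of 0.40 and -0.03. These lists hold few measured genes, and no statement on a pathway as a whole can rest on them.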

How the data were processed

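The authors deposited 1 linear intensity for each probe set and array, computed with MAS5 according to the submitters' processing notes (its version is not given in the sources used here). The deposited intensities have the same mean on each array once 2% is trimmed at each end. Target was made from 6 µg of RNA, per the labels' protocols. Here 64 control probe sets were left out, and signals under the 40th percentile of the other 22746 were raised to that floor before log2 was taken. Where a gene had several probe sets, the highest by mean log2 signal stood for it. Of 13355 genes, 7993 exceeded the floor somewhere. Symbols are those of the array annotation, and a gene table of assembly TAIR10.1 gave updated ones, which chose the same 60 genes. Since the files name no build, coordinates are left out, and the table gave names and gene neighbours alone.

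With 1 array per genotype no difference was tested, and precision is limited by the number of arrays. Genes were counted by size, at 2-fold and 1.5-fold. The members and lists were chosen with earlier results of these data known. Named genes were those 1.5-fold apart in duf761-1 over NO or OE6 over Col-0, or 2-fold apart in Col-0 over NO, the extremes and the 2 highest mean signals of each family, and up to 2 genes per list. Other genes named were chosen after their values were seen. The listed symbols PS2 and FDH matched presenilin and formate dehydrogenase genes and were set aside. Listed markers of xylem, seed, pollen and epidermis had no usable named probe set and were not analysed here. The alternatives were median scaling, quantile normalization, loess within pairs of arrays (span 0.4, statsmodels lowess), a 25th or a 60th percentile floor, unfloored signals, the floor as a pseudocount, averaging all probe sets of a gene, leaving out probe sets marked for cross-hybridisation, and updated symbols.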

Additional observations from a re-analysis of the deposited data

How the results depend on the processing

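No paired analysis was possible because each genotype has 1 array. Of 228 values of counts and medians under the alternatives, 213 stayed within 1.5 times the reported count or within the noise yardstick of the reported median, and no value of a member 2-fold apart changed sign. In duf761-1 over NO, the 0 members at least 2-fold lower became 1 (BGLU19) with median scaling or the 25th percentile floor, and 2 (BGLU19 and PAP20) with no floor. In OE6 over Col-0, the 2 members at least 2-fold higher became 1 (SBT4.12) with the 60th percentile floor or the pseudocount. They became 3 (with BGLU45) using the 25th percentile floor or none. In Col-0 over NO, the 6 higher became 3 with the pseudocount, and the 1 lower became 2 (BGLU40 and BGLU19) with median scaling, quantile normalization and the pseudocount, and 4 (with BGLU45 and SBT3.3) using the 25th percentile floor or none. Of the counts added after seeing the data, the 4 members 2-fold higher on both Columbia arrays became 2 with median scaling and with the pseudocount, and the 2 SCPL genes with a Col-0 over NO ratio below 0 became 6 with median scaling and 4 with quantile normalization. The cause of the changes with scaling was not tested. With the pseudocount SCPL49 and scpl48, which lay just past 2-fold, were no longer counted, and nor was SBT4.12. Low signals limit BGLU19, BGLU45, SBT3.3 and PAP20 most, and each ratio rests on 2 arrays.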

Other observations

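A further subtilase gene, SBTI1.1 (AT1G01900), has a letter between the family prefix and its number, so the naming rule did not take it. It was above the floor on all 4 arrays, with signals of 137 on duf761-1 and 167 on NO, and of 184 on OE6 and 136.5 on Col-0. Its log2 ratio was -0.29 in the mutant and 0.43 in the overexpressor, each against its wild type, so it was within 1.5-fold in both. Another 3 probe sets match the rule in name but are annotated to several genes, and they were left out.

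Of the members below the floor on all 4 arrays, 3 chosen after their values were seen came near it on some. BGLU43, the neighbour of BGLU44, had signals of 67.6 on duf761-1 and 95.7 on NO, and of 2.1 on OE6 and 23.7 on Col-0. The gene scpl47 had 84.6 on duf761-1 and 25.6 on NO, and 57.7 on OE6 and 92.0 on Col-0. The gene scpl40 had 60.4 on duf761-1 and 89.8 on NO, and 88.8 on OE6 and 74.7 on Col-0. At such signals no ratio is given.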
